A study of Mus musculus with 3 samples.

Results

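Immunoglobulin variable genes, the V segments of the antibody heavy chain (Ighv), the kappa light chain (Igkv) and the lambda light chain (Iglv), were followed through single-cell RNA of immune cells from mouse liver tumours. They were taken by symbol: 348 of the 32285 features listed began with Ighv, Igkv or Iglv, of which 185 were Ighv, 160 Igkv and 3 Iglv. In the cells kept, 225 of the 348 had at least 1 transcript molecule counted by its unique molecular identifier (UMI), namely 120 Ighv, 102 Igkv and all 3 Iglv genes. The other 123 had none in any of the 3 libraries.

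The cells were live CD45+ cells sorted from the tumours of 18-week-old mice of strain C57BL6 labelled MYC-ON, after the oncogene, and all 3 groups share these. Control mice, named DMSO in the files, mice treated with DU101 and mice treated with DU102 gave 1 library each, so no difference between groups can be set against a spread between replicates and no test between groups was made. The sources used here do not say what the agents are, at which dose they were given, how many mice stand behind a library or what drives MYC. Sex went with treatment: 14 of 46 control plasma cells held Xist RNA, against 1 of 512 after DU101 and 2 of 81 after DU102. Y-linked RNA was found in 35, 291 and 60 of them. The control library thus mixed cells of both kinds while the treated libraries held almost no Xist, and this difference and treatment cannot be told apart.

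Each B cell joins 1 heavy V segment and 1 light V segment to the joining and constant parts of its antibody genes, and its daughters inherit the choice. Kappa chains greatly outnumber lambda chains in mice. A plasma cell, the antibody-secreting end stage, fills much of its RNA with 1 heavy and 1 light chain, while a resting B cell holds far less. Cells that share both V genes can be sisters or can have made the same choice independently. The junction that would separate these was not read by these 3′ libraries, so V genes alone do not define a clone.

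The 7 segments below are those on which the results turn: the heavy and light genes of the leading pairs of control and DU101, a pair found in both treated libraries, and Iglv1, whose RNA was found in cells led by other genes. Each is the last stretch of the coding V exon in the GENCODE M21 annotation of GRCm38, written 5′ to 3′ on the gene's strand, and capitals mark the codon of the conserved cysteine that opens the third hypervariable loop and the germline bases after it. Ighv1-66 lay at chr12:115593110-115593409 on the minus strand, Ighv1-53 at chr12:115158403-115158702 (minus) and Ighv3-2 at chr12:114033803-114034102 (minus). Igkv3-4 lay at chr6:70672078-70672377 on the plus strand, Igkv10-96 at chr6:68631963-68632260 (minus) and Igkv8-30 at chr6:70117061-70117360 (minus). Iglv1 lay at chr16:19085017-19085316 (minus).
Ighv1-66: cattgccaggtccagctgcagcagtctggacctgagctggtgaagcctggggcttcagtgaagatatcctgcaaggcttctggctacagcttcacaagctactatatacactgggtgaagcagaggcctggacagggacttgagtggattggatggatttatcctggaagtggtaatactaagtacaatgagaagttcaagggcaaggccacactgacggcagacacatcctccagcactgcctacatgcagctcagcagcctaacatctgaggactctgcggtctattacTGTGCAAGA
Igkv3-4: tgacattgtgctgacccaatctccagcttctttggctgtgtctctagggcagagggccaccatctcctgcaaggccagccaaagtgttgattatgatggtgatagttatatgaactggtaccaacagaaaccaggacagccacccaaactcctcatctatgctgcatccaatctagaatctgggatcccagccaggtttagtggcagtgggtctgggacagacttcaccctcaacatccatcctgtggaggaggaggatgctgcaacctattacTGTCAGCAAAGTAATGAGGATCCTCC
Ighv1-53: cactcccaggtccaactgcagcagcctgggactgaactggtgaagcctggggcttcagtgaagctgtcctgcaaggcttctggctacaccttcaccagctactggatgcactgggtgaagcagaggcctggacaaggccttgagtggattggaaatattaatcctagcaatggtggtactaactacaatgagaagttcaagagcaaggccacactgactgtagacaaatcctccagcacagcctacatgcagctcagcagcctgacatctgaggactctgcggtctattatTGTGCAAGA
Igkv10-96: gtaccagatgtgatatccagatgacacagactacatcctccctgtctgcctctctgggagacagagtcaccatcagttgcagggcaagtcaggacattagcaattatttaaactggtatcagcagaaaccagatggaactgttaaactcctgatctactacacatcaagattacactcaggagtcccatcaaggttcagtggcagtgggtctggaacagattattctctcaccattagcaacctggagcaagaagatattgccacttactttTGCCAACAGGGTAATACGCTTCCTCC
Ighv3-2: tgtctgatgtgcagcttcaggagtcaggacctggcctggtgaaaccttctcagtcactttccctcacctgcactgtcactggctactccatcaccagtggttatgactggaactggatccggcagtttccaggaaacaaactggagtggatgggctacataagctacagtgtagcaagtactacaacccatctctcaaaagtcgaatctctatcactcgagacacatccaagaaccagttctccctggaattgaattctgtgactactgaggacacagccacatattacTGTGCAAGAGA
Igkv8-30: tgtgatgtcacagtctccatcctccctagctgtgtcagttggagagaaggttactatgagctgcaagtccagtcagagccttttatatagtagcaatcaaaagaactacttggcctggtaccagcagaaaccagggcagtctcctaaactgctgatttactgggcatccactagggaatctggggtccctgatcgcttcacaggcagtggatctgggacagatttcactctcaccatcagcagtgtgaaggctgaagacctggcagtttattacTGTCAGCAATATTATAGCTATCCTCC
Iglv1: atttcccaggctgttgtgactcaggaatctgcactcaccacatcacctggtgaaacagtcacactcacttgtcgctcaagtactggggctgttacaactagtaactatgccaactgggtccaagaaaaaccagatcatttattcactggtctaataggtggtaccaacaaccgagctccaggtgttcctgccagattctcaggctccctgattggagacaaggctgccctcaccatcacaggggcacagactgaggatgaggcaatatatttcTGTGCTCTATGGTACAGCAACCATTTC
Ighv1-66 and Ighv1-53, of the same large family, shared 89.2% of aligned V exon bases and differed at 33. Ighv1-66 and Ighv3-2 shared 58.2%. The annotation calls Ighv3-2 a V pseudogene, and its exon held 2 stop codons in frame in this genome. GRCm38 is the genome of a C57BL/6 mouse. Whether the germline V genes of the mice used here match it base for base was not tested.

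Plasma cells were gated by at least 10 Jchain UMIs, at least 2 Mzb1 UMIs and no Siglech. The gate held 46 cells in control, 512 in DU101 and 81 in DU102. B cells were gated by B lineage markers, among them at least 2 Cd79a UMIs, and by fewer than 10 Jchain UMIs, and numbered 561, 414 and 851. All 6 plasma markers the gate did not use (Xbp1, Prdm1, Irf4, Sdc1, Tnfrsf17 and Derl3) were at their highest in the plasma gate in each library, and all 6 B cell markers in the B gate. Plasma cells also carried RNA of other types: S100a9, a neutrophil gene, was found in 34 of 46, 478 of 512 and 81 of 81 of them, and the T cell gene Cd3e in 4, 30 and 2. The 3 libraries held 12639, 15686 and 13650 barcodes with 91013198, 106604935 and 96817875 UMIs, and 23 to 42 barcodes were common to a pair of libraries. Only 1 plasma cell, of DU102, had such a barcode.

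V gene RNA was concentrated in the plasma gate. Of the V UMIs in all kept cells, 5808 in control, 55863 in DU101 and 8734 in DU102, the gate held 90.6%, 93.9% and 88.4%. A control plasma cell carried 9 V UMIs at the lowest, 85.5 at the median and 544 at the highest. The same 3 values were 0, 78.5 and 935 in DU101 and 1, 70 and 429 in DU102, so the ranges lay over each other. At the median cell, V genes made up 0.450% of all UMIs in control, 0.527% in DU101 and 0.396% in DU102. Constant-region UMIs outnumbered V UMIs by 78.6, 72.5 and 69.0 to 1. The libraries read the 3′ end of a message, and the V segment lies toward its 5′ end, so a V count is a small sample of a chain's RNA.

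In single plasma cells, 1 heavy and 1 light V gene held most of the V UMIs. Among cells with at least 10 heavy V UMIs (35 in control, 383 in DU101 and 55 in DU102), the first gene's median share was 96.0%, 78.6% and 90.3%. Heavy V UMIs off the first gene were nearly always on close relatives: counted by family, the first family's median share was 100% in each library, and 32, 332 and 50 of these cells held a single family. For light chains the first gene's median share was 85.2%, 88.3% and 85.8% over 44, 470 and 73 cells. Among kappa genes alone it was 100% in each library, over 43, 450 and 69 cells.

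**Figure D1:**
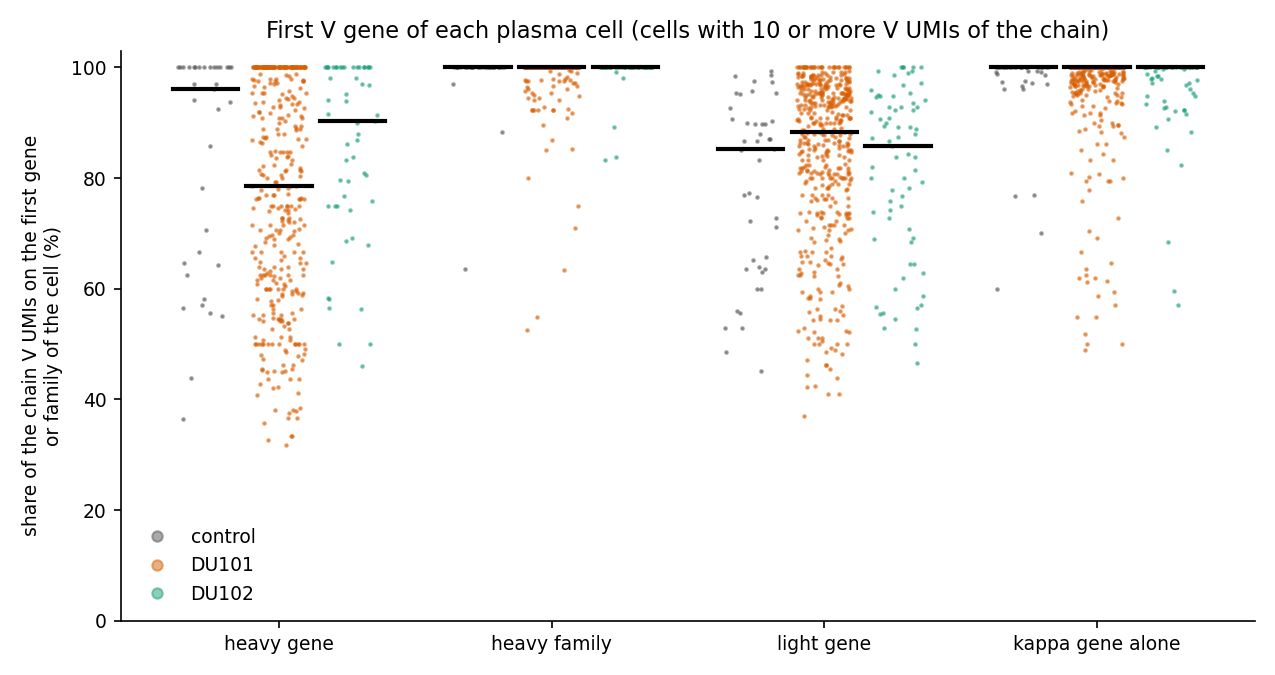
Share of a chain's V UMIs on the first gene, or for heavy chains also on the first family (y axis, %), in plasma cells with at least 10 V UMIs of that chain, by library. Points are cells and bars are medians. Heavy genes reach medians of 96.0%, 78.6% and 90.3% in control, DU101 and DU102, while heavy families and kappa genes alone have a median of 100% in each.

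The second heavy gene was mostly a close relative of the first. A second heavy gene with 3 or more UMIs was present in 16 control, 192 DU101 and 23 DU102 cells that could be assigned a heavy gene. It belonged to the first gene's family in 16, 189 and 22 of them, and the median identity of the V exons was 95.7%, 95.1% and 95.4%. Over all pairs of the 185 heavy genes the median identity was 60.3%, and within families 81.6%. In DU101, Ighv8-11 came second in 16 of the 25 cells led by Ighv8-8, to which it is 96.2% identical. Ighv1-78, 88.2% identical to Ighv1-66, came second in 15 of the 43 cells led by it, and Ighv1-84, 95.4% identical, in 9. Not all were so close: Ighv3-8, which came second in 4 cells led by Ighv3-2, shared 77.2% with it. Whether the counting split reads between such copies was not tested. Calls within these families were taken as uncertain at the level of the gene and firmer at the level of the family.

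Each plasma cell was then assigned the V gene with at least 3 UMIs and at least 50% of its chain's V UMIs. A heavy gene was assigned in 36 of 46, 414 of 512 and 65 of 81 cells and a light gene in 44, 480 and 73. Usage was broad: 20, 64 and 28 different heavy genes and 24, 71 and 30 light genes led at least 1 cell. Drawn down to 36 cells, the libraries would show 20, 23.2 and 20.9 heavy genes, and drawn down to 44 cells, 24.0, 27.4 and 23.9 light genes. At equal cell numbers the 3 libraries thus lay closer together than their totals.

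Heavy chain usage led with a different gene in each library. Ighv1-66 led 43 of 414 assigned cells in DU101, or 10.4% (95% Clopper-Pearson interval 7.62 to 13.7%, for counting error only), 3 of 65 in DU102 and none of 36 in control, which allows a share of up to 8.33%. In the DU101 cells it led, Ighv1-66 had 4 UMIs at the lowest, 32 at the median and 278 at the highest. Ighv1-53 led 5 of 36 control cells (13.9%, 4.67 to 29.5%), 8 of 414 in DU101 (1.93%, 0.838 to 3.77%) and 2 of 65 in DU102. The control and DU101 intervals of Ighv1-53 did not overlap, but all 5 control cells shared a light gene, as described with the pairs. Ighv3-2, the annotated pseudogene, led 28 cells in DU101 (6.76%), 7 in DU102 (10.8%, 4.44 to 20.9%) and none in control.

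Other heavy genes differed in how evenly they were spread. Ighv8-8 led 3, 25 and 6 cells, or 8.33%, 6.04% and 9.23% of those assigned, and their intervals overlapped. Ighv3-8 led 4 control and 23 DU101 cells and none of 65 in DU102, which allows up to 4.62%. Ighv1-54 led 6 of 65 cells in DU102 (9.23%, 3.46 to 19.0%) against 2 of 414 in DU101 (0.483%, 0.0586 to 1.73%) and none of 36 in control. Of the 6 DU102 cells, 4 shared the light gene Igkv2-109, and without that pair Ighv1-54 led 2 of 61 cells (3.28%). By family, Ighv1, the largest with 93 features, led 58.3%, 48.8% and 61.5% of assigned cells. Ighv3 followed with 11.1%, 14.0% and 10.8%, and Ighv8 with 13.9%, 11.8% and 13.8%.

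Annotated pseudogenes led 1 of 36 heavy-assigned cells in control, 46 of 414 in DU101 and 7 of 65 in DU102. In DU101 these were Ighv3-2 in 28 cells, Ighv1-14 in 9 and 6 other genes in 1 to 3 cells each, and in DU102 all 7 were Ighv3-2. Of the 610 Ighv3-2 UMIs of DU101 plasma cells, 97.7% lay in the cells it led, and those cells held 3, 14 and 57 at the lowest, median and highest. No light chain pseudogene led a cell. Pseudogene UMIs were 1.72%, 10.0% and 5.30% of heavy V UMIs and 0.184% to 0.370% of light V UMIs.

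Light chain usage was led by a kappa gene in control and in DU101. In DU102 the gene leading most cells was the lambda gene Iglv1, with 7 of 73 cells (9.59%, 3.94 to 18.8%). All 7 had more kappa than lambda constant-region UMIs, so this is not a lead of lambda cells. Among kappa genes alone Igkv1-110 led in DU102, with 6 of 74 cells. Igkv3-4 led 48 of 480 cells in DU101 (10.0%, 7.47 to 13.0%), 1 of 44 in control (2.27%, 0.0575 to 12.02%) and 3 of 73 in DU102 (4.11%, 0.856 to 11.5%), and the intervals overlapped. Igkv10-96 led 6 control cells (13.6%, 5.17 to 27.4%), 30 in DU101 (6.25%) and 2 in DU102 (2.74%). Igkv1-110 led 1, 21 and 6 cells and Igkv14-111 led 1, 25 and 4. Igkv12-46 led 4 of 44 cells in control (9.09%, 2.53 to 21.7%) and 5 of 480 in DU101 (1.04%, 0.339 to 2.41%), intervals that did not overlap. Across families, Igkv3 led 7.32%, 17.7% and 19.7% of cells assigned a kappa gene, and its control interval (1.54 to 19.9%) took in both treated values.

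**Figure D2:**
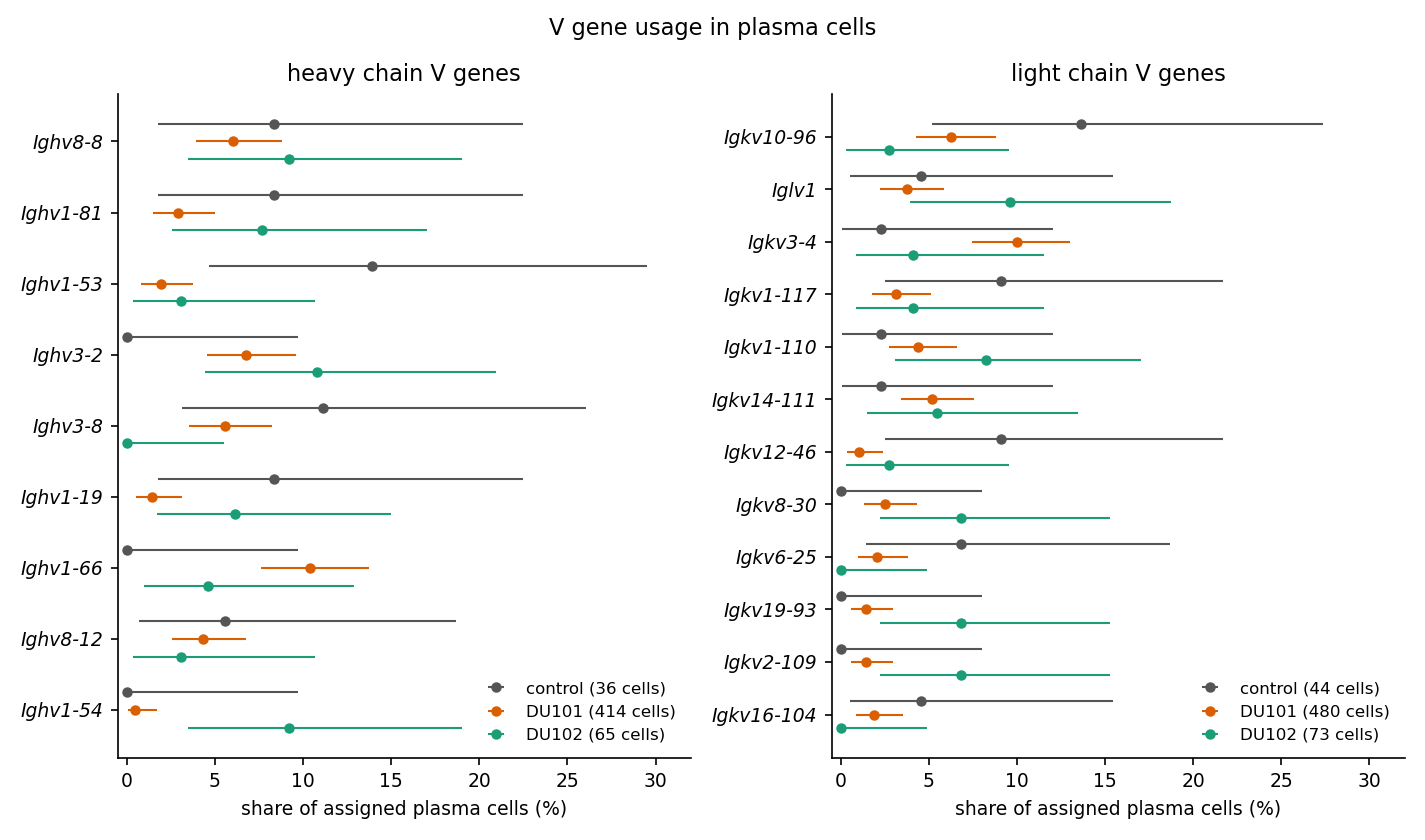
Share of assigned plasma cells led by each of the most used heavy (left) and light (right) V genes (x axis, %), by library. Points are shares and lines are 95% Clopper-Pearson intervals, which cover counting error only. Ighv1-66 reaches 10.4% in DU101 and 0 of 36 cells in control, and most other intervals overlap between libraries.

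Ratios of cell shares between DU101 and control were taken next. Ranked by the interval end nearest to 1 among genes leading at least 10 cells, the first heavy genes were Ighv1-66 and Ighv3-2 and the first light genes Igkv3-4 and Igkv14-111. The lower ends of the exact intervals of the ratio were 0.971 for Ighv1-66 and 0.618 for Ighv3-2, both without an upper end because no control cell was led by them. Igkv3-4 was 4.4 times as frequent as in control (0.753 to 177) and Igkv14-111 2.29 times (0.375 to 94.1). The intervals of these 4 ratios reach below 1. Outside that ranking, since they led fewer than 10 cells, Ighv1-53 was at 0.139 times control (0.0401 to 0.541) and Igkv12-46 at 0.115 times (0.0247 to 0.577), both named after their values were seen. The ratio of Ighv1-53 rests on the 1 control pair described below. That of Igkv12-46 rests on 4 control cells, of which 2 shared the heavy gene Ighv1-81. No V gene led 10 cells in DU102.

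Summed V UMIs, in which a few rich cells carry most of a gene's count, differed more widely. A gene was called when its UMIs per plasma cell UMI differed by 2-fold or more with the exact Poisson interval on that side of 1, among features with at least 30 UMIs in both libraries together. Of 348 V genes, 133 reached that minimum for DU101 against control, where 85 were higher against a background of 3.70% of all features, and 11 were lower against 5.48%. Of the 85, 59 had no UMI in the 46 control cells and so passed the minimum through DU101 alone, which leaves the count a description. For DU102 against control 71 V genes reached it, 33 higher (background 8.21%) and 21 lower (2.48%). Of those 33, 18 had no UMI in control. Between the treated libraries, 24 of 137 were higher in DU102 (background 11.2%) and 81 lower (2.66%), and 39 of the 81 had no UMI in DU102, so these counts too are descriptions.

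Heavy and light genes were next read together in the 35, 399 and 62 cells assigned both. Control held 28 different pairs, DU101 269 and DU102 52. Pairs found in more than 1 cell numbered 4, 67 and 6 and took in 11, 197 and 16 cells, or 31.4%, 49.4% and 25.8% of paired cells. These percentages come from 35 to 399 cells, and repeats are met more often in a larger sample.

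The pair Ighv1-66 with Igkv3-4 led DU101. It was found in 27 of 399 cells (6.77%, 4.51 to 9.69%) and in none of 35 in control or 62 in DU102, which allows up to 8.57% and 4.84%. These 27 cells had 4, 26 and 278 Ighv1-66 UMIs at the lowest, median and highest and 8, 61 and 224 Igkv3-4 UMIs. In 26 of them the heavy constant gene with most UMIs was Igha, of the IgA class secreted at mucosal surfaces, and in 1 it was Ighg2b. Without these cells Ighv1-66 led 16 of 387 cells (4.13%) and Igkv3-4 21 of 453 (4.64%), so most of the cells led by each belonged to 1 pair.

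In control, Ighv1-53 with Igkv10-96 was found in 5 of 35 cells (14.3%, 4.81 to 30.3%), 4 of them Igha and 1 Ighg2c. All 5 control cells led by Ighv1-53 were in this pair, and 3 of the 5 held Y-linked RNA and 1 Xist. In DU101 the pair was found in 2 of 399 cells. In DU102, Ighv1-54 with Igkv2-109 and Ighv3-2 with Igkv8-30 were each found in 4 of 62 cells (6.45%, 1.79 to 15.7%). Ighv3-2 with Igkv8-30 was also found in 4 of 399 cells of DU101, and every one of its cells was Igha. Ighv8-8 with Igkv9-120 was found in 2 DU102 cells, both Ighm.

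Further DU101 pairs were Ighv3-8 with Igkv17-127 in 10 cells, Ighv3-2 with Igkv14-111 in 8, Ighv8-8 with Igkv6-23 in 6 and Ighv5-9 with Igkv2-137 in 5. Every cell of these 4 pairs was Igha. Between libraries, 5 pairs were common to control and DU101, which is 17.9% of control pairs and 1.86% of DU101 pairs. DU101 and DU102 had 14 in common (5.20% and 26.9%) and control and DU102 3 (10.7% and 5.77%). Ighv1-81 with Igkv1-110 and Ighv8-12 with Igkv10-96 were found in all 3 libraries, each in 1 or 2 cells per library.

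**Figure D3:**
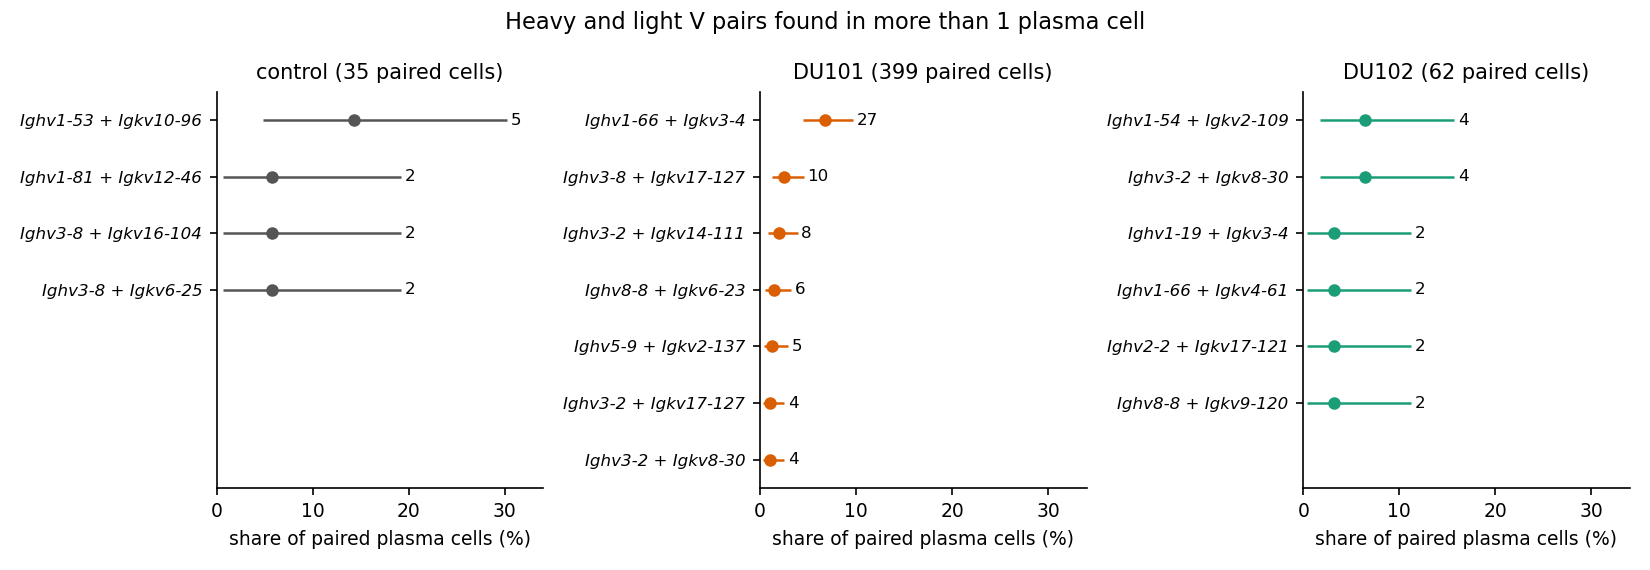
Leading heavy and light V pairs found in more than 1 plasma cell of each library, as a share of cells assigned both genes (x axis, %). Points are shares, lines 95% Clopper-Pearson intervals and numbers the cells. Ighv1-66 with Igkv3-4 takes in 27 DU101 cells, and no pair heads more than 1 panel.

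A heavy constant gene was called where it had at least 10 UMIs and more than all other heavy constant genes together. This gave 46, 496 and 76 plasma cells. The gene called was mostly Igha, in 39 (84.8%), 412 (83.1%) and 46 (60.5%). Ighg2b followed in 3, 73 and 12 cells, and Ighm was called in 0, 3 and 4. By heavy V gene in DU101, Igha was called in 39 of 43 cells led by Ighv1-66, 21 of 23 led by Ighv3-8, 21 of 28 led by Ighv3-2 and 13 of 13 led by Ighv1-9. Among genes leading at least 10 cells with a called class, the lowest was Ighv1-81, with 6 of 10. The 95% interval of each of these 5 shares took in the 83.1% of the library.

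Iglv1 departed from the pattern of a V gene held by the cells it leads. By which constant genes had more UMIs, Igkc or the summed Iglc genes, 45 of 46, 503 of 512 and 81 of 81 plasma cells were kappa, and 1, 9 and 0 were lambda, where 0 of 81 allows up to 3.70%. In kappa cells at least 1 Iglv1 UMI was found in 38 of 45 (84.4%), 406 of 503 (80.7%) and 61 of 81 (75.3%). The median count in kappa cells was 6, 3 and 4 UMIs and the highest 54, 122 and 68. In the 9 lambda cells of DU101 the median was 54 and the highest 359.

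No leading kappa or heavy gene was spread in this way. In cells assigned an Igkv gene, Iglv1 was found in 82.9% of 41, 81.9% of 458 and 80.3% of 66, at 5.36, 4.10 and 3.82 UMIs per 10000. The leading Igkv genes were found in 0%, 1.18 to 2.04% and 0 to 1.47% of kappa cells assigned another light gene. The leading Ighv genes were found in 0 to 3.23%, 0.539 to 2.81% and 0 to 1.72% of cells assigned another heavy gene. Only 10.0%, 29.6% and 33.9% of Iglv1 plasma cell UMIs lay in cells it led. For genes with at least 50 UMIs the median was 100%, 94.8% and 99.0%, and 21 of 25, 71 of 119 and 29 of 37 had at least 90% there. Under 50% were 1 gene in control, Iglv1 itself, 18 in DU101 and 5 in DU102. Those of DU101 included Iglv3, Igkv3-1 and heavy genes met above as second genes, such as Ighv1-78 and Ighv8-11, so a low value here was not particular to Iglv1.

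**Figure D4:**
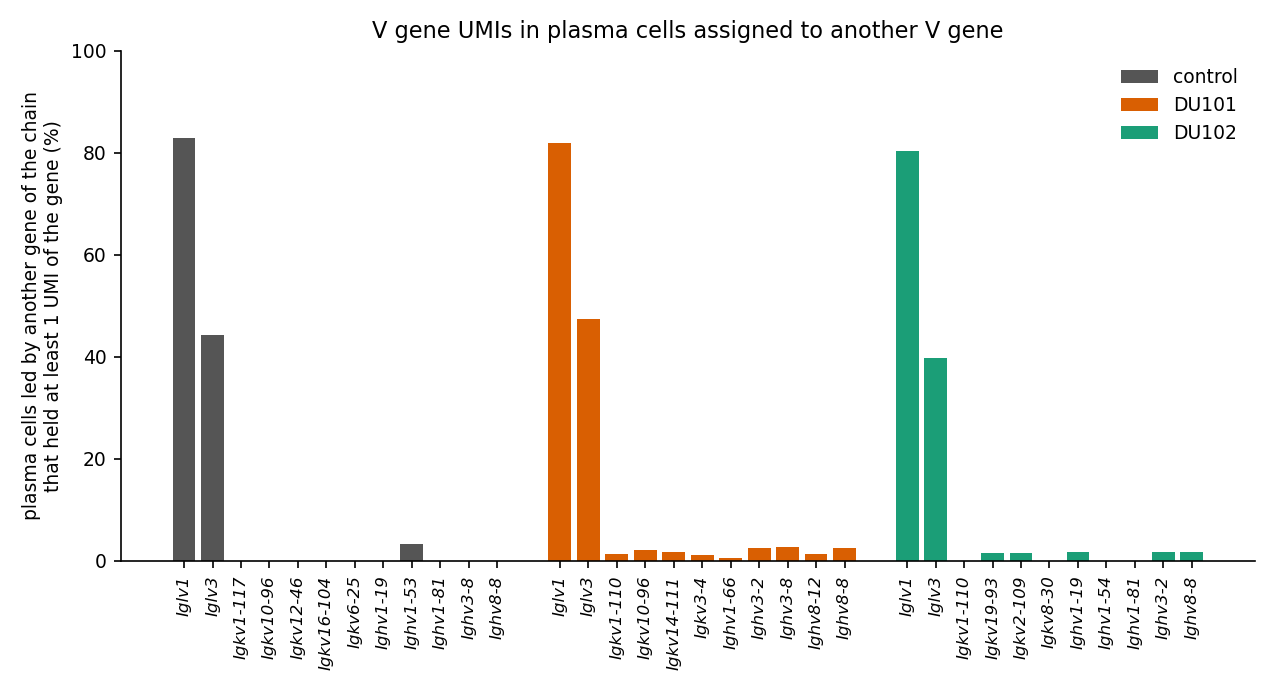
Share of plasma cells assigned another V gene of the same chain that held at least 1 UMI of the gene named (y axis, %), for Iglv1, Iglv3 and the leading kappa and heavy genes of each library. For light genes, only cells with more Igkc than Iglc UMIs are counted. Iglv1 is found in 80.3 to 82.9% of such cells, Iglv3 in fewer, and no leading Igkv or Ighv gene in more than 3.23%.

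Iglv3 showed the same spread at lower counts and Iglv2 did not. Iglv3 was found in 46.7%, 46.7% and 35.8% of kappa cells and Iglv2 in 4.44%, 2.19% and 1.23%. The lambda constant genes were found in most kappa cells as well: Iglc1 in 88.9%, 71.6% and 79.0%, Iglc2 in 93.3%, 88.7% and 88.9% and Iglc3 in 100%, 95.8% and 97.5%. T cells of the same libraries held 2, 43 and 3 Iglv1 UMIs, or 0.002, 0.023 and 0.002 per 10000 UMIs. The level in cells led by a kappa gene was 2907, 175 and 1881 times that in T cells (801 to 24072, 129 to 242 and 640 to 9153). The control and DU102 ratios thus rest on very few T cell UMIs. In DU101 the share of kappa cells with Iglv1 was 80.05% among 406 Igha cells and 85.7% among 70 Ighg2b cells. Iglv1 was the second light gene in 33 of 41, 322 of 458 and 47 of 66 cells assigned an Igkv gene. The source of the Iglv1 RNA in kappa cells was not tested.

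Kappa B cells held little Iglv1. It was found in 3 of 494 in control (0.607%), 11 of 376 in DU101 (2.93%) and 11 of 760 in DU102 (1.45%). These cells are shallower, with a median of 3132 to 3342 UMIs against 15883 to 21406.5 in plasma cells. Lambda B cells, by constant UMIs, numbered 63, 33 and 81, or 11.2%, 7.97% and 9.52% of B cells, and Iglv1 was found in 7, 3 and 4 of them. Where Iglv1 led a plasma cell (2, 18 and 7 cells), its median share of light V UMIs was 59.0%, 60.3% and 57.1%. Of the 3, 22 and 7 plasma cells assigned any Iglv gene, 2, 13 and 7 were kappa by their constant UMIs, so an Iglv call here does not mark a lambda cell.

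B cells gave too few V UMIs for usage. A V UMI was found in 44.0%, 51.4% and 41.7% of B cells, at 1.55, 2.39 and 1.28 per 10000 UMIs, and only 1, 4 and 3 cells could be assigned a heavy gene and 7, 17 and 7 a light gene. Among assigned B cells Igkv12-44 led 2 of 7 in control and Igkv1-117 led 3 of 17 in DU101, while in DU102 each of the 7 was led by a different gene. In summed UMIs, Iglv3 gave 20, 14 and 21, Igkv12-44 gave 17, 19 and 12 and Iglv1 gave 14, 17 and 18. All 19 Ighv1-5 UMIs of DU101 came from 1 cell. In summed UMIs, 3 V genes reached the minimum of 30 for DU101 against control, none higher (background 1.68%) and none lower (3.25%). For DU102 against control 2 reached it, again none higher (4.80%) and none lower (1.14%). Between the treated libraries 4 reached it, with none higher in DU102 (6.92%) and 3 lower (1.35%).

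V RNA was also found at low levels in cells that make no antibody. In T cells, V genes gave 0.024 UMIs per 10000 in control, 0.190 in DU101 and 0.026 in DU102. NK cells gave 0.010, 0.095 and 0.030, neutrophils 0.011, 0.122 and 0.021, monocytes or macrophages 0.010, 0.139 and 0.013, and plasmacytoid dendritic cells (pDC) 0.028, 0.229 and 0.079. DU101 was the highest in each of these groups, and its interval lay above the control's in each. With every T cell thinned to 2000 UMIs, 0.652%, 4.65% and 0.568% had a V UMI, against 1.74%, 9.47% and 1.65% unthinned.

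The level outside the B lineage went with the amount of plasma cell V RNA in the library. Over 6 gates together it was 0.0146, 0.160 and 0.0252 per 10000, so DU101 was 10.9 times control (8.46 to 14.3) and DU102 1.72 times (1.26 to 2.38). V UMIs of plasma cells, per 10000 UMIs of the whole library's kept cells, were 0.633, 5.31 and 0.858, that is 8.39 and 1.36 times control. V UMIs per 1000 Igkc UMIs were 18.2, 18.7 and 19.4 in plasma cells and 28.7, 27.3 and 29.2 in B cells. T cells gave 19.5, 15.4 and 13.1. Kupffer cells aside, the other gates ran from 7.18 in control neutrophils (1.96 to 18.4) to 25 in DU102 pDCs (15.3 to 38.6). NK cells of DU102 gave 24.7 (13.8 to 40.8), and these DU102 intervals took in both the plasma and the B cell value of DU102. The source of the V RNA outside the B lineage was not tested. In DU101, Iglv1 (85 of 679 V UMIs), Igkv12-44 (62) and Igkv3-4 (41) led the V UMIs of the 6 gates, and 99.7% of those UMIs were on genes seen in the library's own plasma cells. Across the 348 genes, the make-up of V UMIs in the 6 gates of DU101 had a Pearson r of 0.885 with DU101 plasma cells, 0.747 with DU102 and 0.647 with control plasma cells, as a description over genes that are not independent. The other libraries gave few UMIs, and their values lay closer together. The 65 UMIs of control had an r of 0.553 with their own plasma cells and 0.543 with those of DU101, and the 113 of DU102 had 0.479 with their own and 0.447 with those of DU101. Of these UMIs, 96.9% and 86.7% were on genes seen in the library's own plasma cells.

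**Figure D5:**
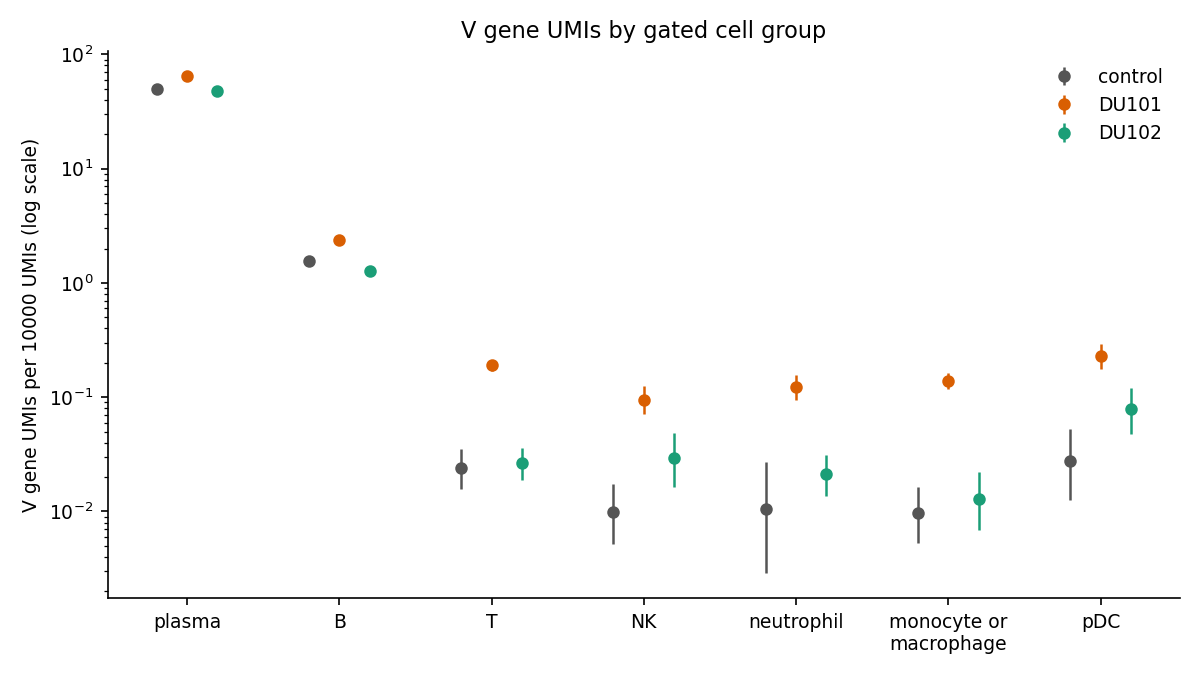
V gene UMIs per 10000 UMIs (y axis, log scale) in each gated group of cells, by library. Points are summed levels and lines exact 95% Poisson intervals, which cover counting error only. Plasma cells reach 47.7 to 64.6 and T cells 0.024 to 0.190. Kupffer cells, with at most 1 V UMI per library, are not drawn.

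The list of V genes known from the natural antibodies of B-1 cells held 6 genes. Ighv11-2, Ighv12-3, Igkv14-126 and Igkv7-33 led no plasma cell in any library, which in DU101 allows up to 0.725% of heavy and 0.625% of light assigned cells. Ighv7-1 led 2 cells and Igkv4-91 led 4, all in DU101. Over all heavy genes, 64 of 185 led a cell in DU101, so most V genes led none and the list does not stand apart by these counts.

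Other genes of the B lineage were read in the same plasma cells, by the same 2-fold rule. Of 8 plasma cell programme genes, none was called higher or lower in DU101 or DU102 than in control, and Derl3, which helps clear misfolded proteins, was the farthest from control at 1.75 and 1.77 times. Of 13 constant and joining genes, 3 were called higher and 4 lower in DU101 (3.70% and 5.48% of all features), and 2 higher and 2 lower in DU102 (8.21% and 2.48%). Ighd was under the minimum in both. Ighm, the constant gene of the first antibody class, was at 58.0 CPM (UMIs scaled to a common library total) in control, 322 in DU101 and 6764 in DU102, where it came from 22 cells. Ighg3 had no UMI in control, 51 in DU101 and 2334 in DU102, from 4 cells.

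Genes of V recombination were close to absent from plasma cells. Of 7 recombination and precursor genes, Rag1, Rag2, Dntt, Vpreb2 and Igll1 had no UMI there, Vpreb1 had 2 in DU101, and Vpreb3 had 186, 726 and 225. Of 2 cell division genes, Mki67 was found in 22 of 46, 172 of 512 and 52 of 81 plasma cells, at 169, 65.5 and 291 CPM, and was called lower in DU101. Top2a, at 104, 57.4 and 208, was called higher in DU102. The part of these differences in the V gene levels was not tested.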

How the data were processed

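Single-cell libraries (10x, 3′) were made from sorted CD45+ cells, 1 per group. The authors deposited raw UMI counts per gene and cell. The submitters' processing notes name Cell Ranger 2.1.1 and mm10, whereas the deposited matrices' header names Cell Ranger 6.0.0. Which reference annotation gave the features was not given in the sources used here. V gene positions and sequences came from GENCODE M21 (GRCm38), in which all 348 V features were matched by identifier.

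Barcodes under 200 genes or over 10% mitochondrial UMIs were dropped, and Scrublet doublets (scanpy 1.11.5; expected rate 0.008 per 1000 barcodes; 265, 458 and 249 removed) were left out, leaving 10154, 13799 and 11461 cells with median totals of 6336, 4832 and 5091 UMIs. Gates used raw UMIs. The rule gave no B cell gate, which was set here from B lineage markers. Not every gate marker, and not every list of B lineage genes, is reported here. The 6 other gates were T, NK, neutrophil, Kupffer, monocyte or macrophage and pDC. In each library all 4 check markers were highest in their own gate, except for monocytes or macrophages, with 3, 2 and 2 of 4. Near-identical V genes can share reads, which was not tested here, and Ighv5-8 and Ighv1-13 each carry 2 identifiers.

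Named are the 5 heavy and 5 light genes leading most plasma cells per library, the 3 of each in B cells, the 3 leading pairs, all Iglv genes, 6 natural-antibody genes and the genes whose cell share differed most. Members and lists were chosen with earlier results of these data known. Shares have Clopper-Pearson and sums exact Poisson 95% intervals (scipy 1.17.1), for counting error only; V UMIs sit in few cells, so Poisson intervals are too narrow. A count of 0 allows 3 counts. Assignment and ratio calls were tested on simulated data. The simulated cells scattered V UMIs off the true gene over all genes of the chain, so confusion between close relatives was not tested. Alternatives covered gates, filters, doublets, assignment thresholds, control cells with Y-linked RNA alone and leaving out the leading pairs.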

Additional observations from a re-analysis of the deposited data

How the results depend on the processing

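No paired analysis was possible because each group is 1 library and no result comes from a test between replicates. Across 34 results and 253 alternatives, 229 values moved by less than their interval, or for counts stayed within 1.5 times, and 24 moved further. Leaving out the leading pair, an alternative chosen after seeing the data, took Ighv1-53 in control from 13.9% to 0%, Igkv10-96 in control from 13.6% to 2.56%, Ighv1-66 in DU101 from 10.4% to 4.13% and Igkv3-4 in DU101 from 10.0% to 4.64%. Asking for 80% of a chain's V UMIs on the first gene gave 5.75% for Ighv1-66 and 2.60% for its pair with Igkv3-4 in DU101, and 0% for Iglv1 in DU102. By summed V UMIs, Ighv1-66 was 15.7% of heavy V UMIs in DU101. With at least 50 V UMIs, first-gene medians were 90.9% for heavy and 91.0% for light genes in DU101 and 98.1% for heavy genes in DU102 (9 cells). By summed UMIs, V genes were 0.646% of plasma cell RNA in DU101 and 0.477% in DU102. The share of kappa cells with Iglv1 was 75.4% in DU101 under a looser plasma gate and 86.5% in DU102 among cells with under 1% lambda constant UMIs, both chosen after seeing the data. Among B cells, Igkv12-44 led 0% in control at 5% mitochondrial UMIs and Igkv1-117 0% in DU102 under a stricter gate, each of 3 cells. Outside B and plasma cells, weighting cells alike gave 0.0210, 0.230 and 0.0363 V UMIs per 10000, and DU101 fell to 0.140 without cells above 1 Jchain or Mzb1 UMI. V genes lower in DU101 than in control numbered 19 when only Xist-free control cells carrying Y-linked RNA were used, 17 without the minimum of 30 UMIs and 19 at 1.5-fold, against 11. The causes were not tested. A first gene of at least 10 UMIs left no assigned B cells in some libraries and gave no value there. The limit throughout is depth: a median of 20.5 to 23 heavy V UMIs per plasma cell, 36 to 65 assigned cells outside DU101, and 1 library per group.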

Other observations

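Usage along the 2 large loci was uneven. Functional genes were split into 3 parts of like size by distance from the joining segments. Shares are of cells led by a functional gene, 35, 368 and 58 for heavy and 41, 458 and 66 for kappa. The 1, 46 and 7 cells led by heavy pseudogenes were left out. Among them were all cells led by Ighv3-2, which lies within the span of the nearest heavy part. The farthest part of the heavy locus, 1562 to 2571 kb away with 39 genes, led 60.0% of cells in control (42.1 to 76.1%), 49.7% in DU101 (44.5 to 55.0%) and 62.1% in DU102 (48.4 to 74.5%). The middle part led 22.9%, 23.9% and 24.1% and the nearest part 17.1%, 26.4% and 13.8%, each with 38 genes. For kappa the farthest part led 48.8%, 43.7% and 48.5% and the middle part 22.0%, 20.3% and 16.7%. Ighv1-66 and Ighv1-53 lie in the farthest heavy part, 2164 and 1729 kb away, and Igkv3-4 lies in the nearest kappa part, 51.4 kb away.

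A few V genes outside the plasma gate stood out from the make-up of plasma cells. Ighv8-12 gave 8 of 26 V UMIs in control T cells, 9 of 349 in DU101 and 9 of 39 in DU102, each UMI in a different cell, while it was 1.73%, 0.909% and 0.557% of plasma cell V UMIs. Igkv10-94 gave 2 of 9, 2 of 67 and 7 of 20 V UMIs in pDCs and had no UMI in DU102 plasma cells. Igkv12-44 gave 35 of 349 V UMIs in DU101 T cells, in 34 cells, and none in T cells of the other libraries, although it was 6.86% of plasma cell V UMIs in DU102 and 2.87% in DU101. These genes were chosen after their values were seen.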
